A study of Mus musculus with 2 samples.

Results

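Genes of coenzyme Q synthesis were examined on 2 arrays of inguinal white adipose tissue, a depot of fat under the skin of the groin. The list held 10 mouse genes, Coq2 to Coq7, Coq9, the paralogues Coq10a and Coq10b, and Pdss1, and each was found through the gene symbol of its probe sets. Probe sets were named for 9 of the 10 genes, among 19938 genes named on the arrays. Pdss1 had no probe set named here, so no value is given for it.

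The tissue came from male C57BL/6J littermates that all lacked apolipoprotein E, a lipoprotein ligand whose loss raises blood cholesterol. In the group labelled ApoE-KO this was the only targeted gene (ApoE-/-), and in the group labelled DKO the uncoupling protein gene was targeted too (Ucp1-/-;ApoE-/-). The mice were kept at 23 °C and were 9 weeks old when a high-fat diet began, which lasted 9 weeks. RNA of 3 mice per genotype was pooled and hybridised to 1 Affymetrix array, so there were 2 arrays in all. No replicate stands behind any of the differences, the spread between mice is unknown, and p-values are not given. Pooling also means that 1 animal could carry a difference of its pool. Because the tissue was measured in bulk, more cells of a type and more RNA per cell cannot be told apart. The number of arrays limits the precision of each value.

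The arrays were checked against their labels first. The Ucp1 probe set read 2230 in the DKO-labelled array and 219 in the ApoE-KO-labelled array, which goes against the label if it reads the deleted part, and the sources used here do not give the position of its probes. Apoe, targeted in both groups, read 502 and 589 in the same order (-0.23 on the log2 scale). It cannot tell the groups apart, and both values lay above the array medians given below. Every direction therefore rests on the labels. Median intensities over 35557 probe sets were 152.1 in the DKO-labelled array and 157.65 in the ApoE-KO-labelled array.

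Coenzyme Q, or ubiquinone, is a lipid of the inner mitochondrial membrane that carries electrons from complex I, complex II and several other dehydrogenases to complex III. Its benzoquinone ring comes from tyrosine and its polyprenyl tail from the mevalonate pathway. Mitochondrial enzymes join ring and tail and then modify the ring, most of them within a protein assembly on the matrix face of the inner membrane. In brown and beige fat, where fuel oxidation is fast, coenzyme Q also accepts the electrons of fatty acid oxidation and of mitochondrial glycerol 3-phosphate dehydrogenase.

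All 9 measured genes had a higher intensity in the DKO-labelled array than in the ApoE-KO-labelled array. Their differences, given as log2 intensity of the DKO-labelled array minus that of the ApoE-KO-labelled array, ran from 0.25 to 1.55 with a median of 1.08, or 2.11-fold. Over the 9891 genes above the expression floor the median was -0.01, and 48.2% of them were higher in the DKO-labelled array. This floor, a rule of size and not a detection limit, was set at 7.62 (an intensity of 196.9), the middle of the ranking of named probe sets by mean log2 intensity. All 9 genes lay above it, and 6 of the 9 were at least 2-fold higher, against 2.79% of the genes above the floor. At 1.5-fold, 7 of the 9 were higher (7.57% of genes above the floor) and 0 lower (3.73%), and at 3-fold 0 were higher (0.526%) or lower (0.384%). None (0) of the 9 was at least 2-fold lower, a size reached by 0.698% of the genes above the floor. The middle 90% of those genes lay between -0.52 and 0.76, and 7 of the 9 coenzyme Q genes lay above the upper of these limits.

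**Figure D1:**
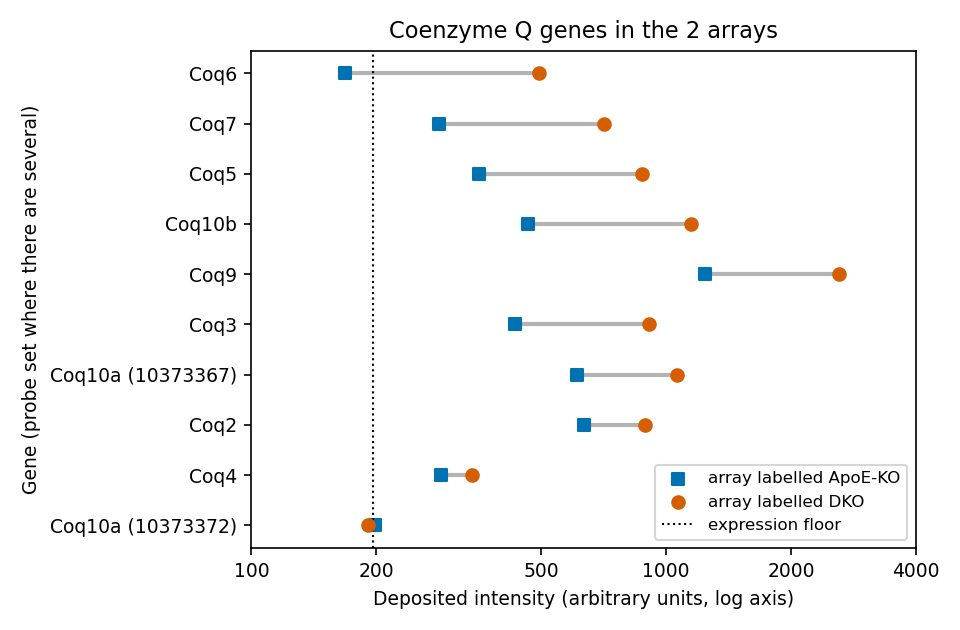
Deposited intensity (log axis) of each probe set of the coenzyme Q genes in the ApoE-KO-labelled array (squares) and the DKO-labelled array (circles), 1 array per genotype, with the expression floor of 196.9 as a dotted line. The DKO circle lies to the right of the square for every probe set except the dimmer Coq10a probe set (10373372), and Coq6 has the longest gap.

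Markers of cell types were read beside these values, and their directions differed. Skeletal muscle markers were higher in the ApoE-KO-labelled array in 21 of 21 genes (median -3.99). Their summed intensity was 48588 there and 4074 in the DKO-labelled array, where 16 of the 21, among them the fast myosin gene Myh4 (116), lay under the floor. Mature adipocyte markers, all 10 of them above the floor, had a median difference of 0.05 (-0.00 with quantile normalization), with summed intensities of 47638 in the DKO-labelled array and 45802 in the ApoE-KO-labelled array. Brown and beige markers were higher in 8 of 8 genes in the DKO-labelled array (median 2.93, 18867 against 3003). Prdm16, named after its values were seen, differed least of the 8 (345 and 316, or 0.13). In the ApoE-KO-labelled array 2 of the 8, Dio2 and Elovl3, lay under the floor. Markers of macrophages (6 of 6 lower, 4945 against 7489), B cells (4 of 4, 2008 against 4122) and fibroblasts (5 of 5, 13610 against 19868) were lower in the DKO-labelled array. The part of these marker differences in the coenzyme Q values was not tested.

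The synthesis genes were read by the role of their products. Coq2, the prenyltransferase that attaches the tail to the ring, had an intensity of 888 in the DKO-labelled array and 632 in the ApoE-KO-labelled array (probe set 10531729). This difference of 0.49, or 1.41-fold, was among the smaller ones of the group. In the same direction, it was exceeded by 10.1% of all genes above the floor.

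Coq6 had the largest difference of the 9. It encodes a flavin-dependent monooxygenase that hydroxylates the ring. Its intensity was 493 in the DKO-labelled array and 169 in the ApoE-KO-labelled array (probe set 10397216), a difference of 1.55 or 2.93-fold. The lower value lay under the floor, and raising it to the floor left a difference of 1.32, or 2.50-fold. Of the 9891 genes above the floor, 58 had a larger difference in the same direction, higher in the DKO-labelled array.

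Coq7, the di-iron hydroxylase of the penultimate step, followed with 707 in the DKO-labelled array and 283 in the ApoE-KO-labelled array (probe set 10567303; 1.32, or 2.50-fold). Coq9 encodes the lipid-binding protein that presents the substrate to the Coq7 enzyme. Its intensity was 2615 against 1238 (probe set 10574232; 1.08, or 2.11-fold). The genes of these physical partners were thus both past 2-fold, Coq7 with the larger difference.

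The methyltransferase genes were both past 2-fold as well. Coq5, which methylates a ring carbon, stood at 877 in the DKO-labelled array and 353 in the ApoE-KO-labelled array (probe set 10524668; 1.31, or 2.48-fold). Coq3, which methylates ring hydroxyl groups, stood at 907 and 432 (probe set 10503584; 1.07, or 2.10-fold). Coq3 was the member just past the 2-fold limit, and Coq10a (0.80) the nearest member short of it.

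Coq4, a matrix-side protein that the synthesis assembly needs to hold together, had the smallest difference. Its intensity was 340 in the DKO-labelled array and 287 in the ApoE-KO-labelled array (probe set 10470741; 0.25, or 1.19-fold). In the same direction, 21.6% of the genes above the floor had a larger difference, and Coq4 lay inside the middle 90% of all differences. Among the 7 measured synthesis genes, 5 were thus at least 2-fold higher, against 2.79% of all genes above the floor. The exceptions were Coq2 and Coq4.

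Coq10a and Coq10b encode lipid-binding proteins of the START family that coenzyme Q needs to work in the respiratory chain, and not enzymes of its synthesis. Coq10b had an intensity of 1148 in the DKO-labelled array and 463 in the ApoE-KO-labelled array (probe set 10346298; 1.31, or 2.48-fold). Coq10a had 2 probe sets, which did not run together. The brighter one (10373367) stood at 1065 and 611 (0.80, or 1.74-fold), and the dimmer one (10373372) at 191 and 199 (-0.05), close to the floor in both arrays. The mean of the Coq10a probe sets gave a difference of 0.37. The sources used here do not say which part of the gene each probe set reads. Coq10b was therefore the paralogue with the larger difference by either reading.

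**Figure D2:**
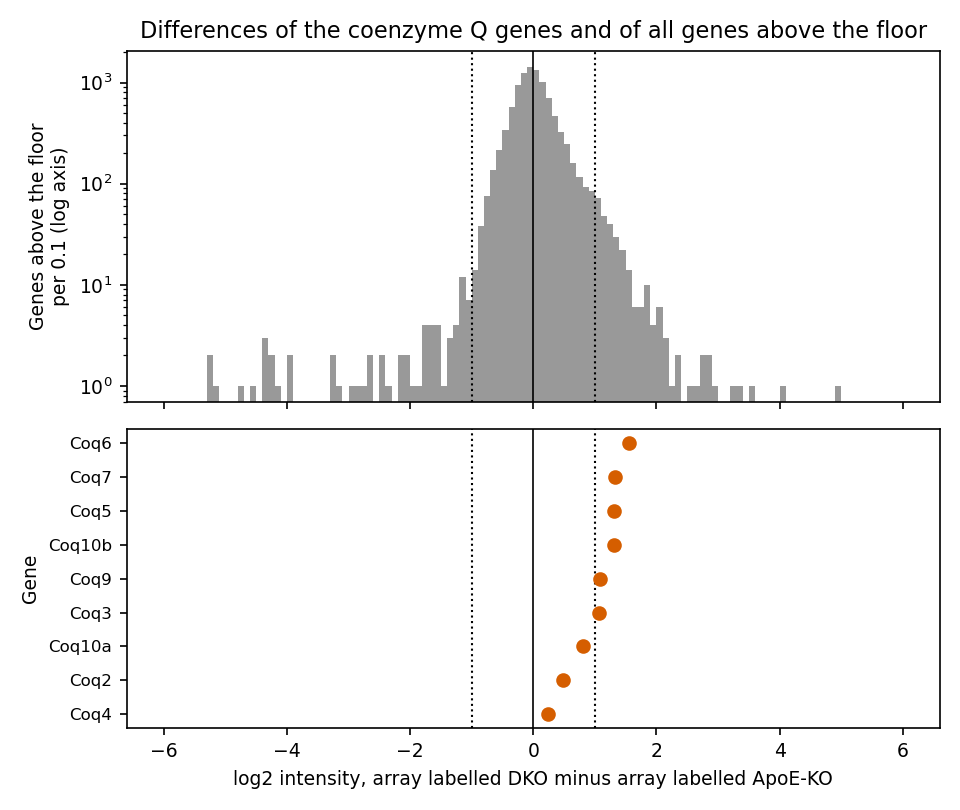
Upper panel, number of genes above the floor (log axis) per 0.1 of log2 difference, DKO-labelled minus ApoE-KO-labelled array, over 9891 genes. Lower panel, the same difference for each coenzyme Q gene (brightest probe set), with dotted lines at 2-fold: Coq6, Coq7, Coq5, Coq10b, Coq9 and Coq3 lie past the upper line, and Coq10a, Coq2 and Coq4 between it and 0.

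The differences of Coq7, Coq5 and Coq10b lay between 1.31 and 1.32 and those of Coq9 and Coq3 between 1.07 and 1.08. With 1 array per genotype, the order of genes this close has no support from replicates. For Coq6, the 3 genes with the nearest pair of log2 intensities over the 2 arrays were Mrps36, Rgs2 and Mfsd4b1. Mrps36 stood at 498 and 164 (Euclidean distance 0.04). The G protein regulator gene Rgs2 stood at 435 and 162 (distance 0.19) and the transporter gene Mfsd4b1 at 508 and 146 (distance 0.21). These are pairs of single values, in the order array labelled DKO and array labelled ApoE-KO. The value in the ApoE-KO-labelled array lay under the floor for Coq6 and for all 3 of these genes.

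The other 3 genes of the synthesis pathway were higher too, by smaller amounts in the median (0.53). Coq8a, an atypical kinase-like ATPase that supports the synthesis assembly, had an intensity of 1002 in the DKO-labelled array and 497 in the ApoE-KO-labelled array (1.01, or 2.02-fold). Its paralogue Coq8b stood at 517 and 357 (0.53, or 1.45-fold). Pdss2, the partner subunit of Pdss1 in the enzyme that makes the tail, stood at 317 and 225 (0.50, or 1.41-fold). Coq8a was at the edge of the 2-fold rule and came under it with quantile normalization (0.98) and with an offset of 50 (0.94). Of the 12 genes measured in the members and this list, 7 were thus at least 2-fold higher and 0 at least 2-fold lower. Over all genes above the floor, these shares were 2.79% and 0.698%.

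Of 8 listed partners of the enzymes, 5 were measured and named here, all of them higher in the DKO-labelled array, with a median of 0.83. Fdx1, a mitochondrial ferredoxin, stood at 795 and 423 (0.91). Parl, the inner membrane protease that processes Stard7, stood at 1979 and 1113 (0.83), and the lipid transfer protein gene Stard7 at 1280 and 895 (0.52). Pptc7, a mitochondrial phosphatase, stood at 741 and 613 (0.27). Hpdl, whose product makes a precursor of the ring, stood at 335 and 106 (1.66, or 0.77 once the lower value is raised to the floor). Its mean lay under the floor, so it was not counted. Among the 4 partners past the floor 0 reached 2-fold (2.79% of all genes above the floor).

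The supply of the tail was read from the mevalonate pathway, of which 6 of 8 listed genes were measured and named here. Their median difference was 0.54, and among the 5 past the floor 0 reached 2-fold (2.79% of all genes above the floor). Pmvk, phosphomevalonate kinase, came nearest with 512 in the DKO-labelled array and 260 in the ApoE-KO-labelled array (0.98). It passed 2-fold with median centring (1.03) and with loess (1.02). Fdps, which makes farnesyl diphosphate, stood at 313 and 175 (0.84, or 0.67 with the floor). Hmgcs1, which makes the precursor of mevalonate, differed by 0.57, and the isomerase gene Idi1 by 0.51. Mvk, named after its values were seen, stood at 294 and 302 (-0.04), a sign that turned with median centring (0.01) and with loess (0.00).

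Farnesyl diphosphate also feeds sterols, prenylated proteins, dolichol and haem A. The 6 genes listed for these other uses had a median of 0.19, with 0 of the 5 above the floor at least 2-fold higher. Nus1 of dolichol synthesis had the largest difference (1489 and 1013, or 0.56), followed by Cox10 of haem A synthesis (0.29). Fdft1, the entry to sterols, differed by 0.11 (0.29 when its probe sets are averaged), and Ggps1, which extends the chain by an isoprene unit, by -0.10. The medians thus stood at 1.08 for the coenzyme Q genes, 0.54 for the mevalonate pathway and 0.19 for the other uses of farnesyl diphosphate. The last 2 lists each held 1 gene under the floor. Their medians ran from 0.49 to 0.59 and from 0.06 to 0.28 over the ways of processing. No test of these gaps was made.

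Genes of the enzymes that reduce coenzyme Q outside complex I, electron-transfer flavoprotein subunits included, had a median of 1.03 over 12 genes, close to that of the coenzyme Q genes. At least 2-fold higher were 6 of the 12 (2.79% of all genes above the floor), and 0 were at least 2-fold lower (0.698%). Gpd2, the mitochondrial glycerol 3-phosphate dehydrogenase, stood at 2438 in the DKO-labelled array and 649 in the ApoE-KO-labelled array (1.91, or 3.76-fold). Sdhb, the iron-sulfur subunit of complex II, stood at 1285 and 419 (1.62). Etfdh, which passes electrons of fatty acid oxidation to coenzyme Q, stood at 6456 and 2205 (1.55), and Etfb, a subunit of its electron donor, at 2702 and 1014 (1.41).

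Some quinone-linked dehydrogenase genes had differences near 0. Dhodh of pyrimidine synthesis (0.12), Sqor of sulfide oxidation (0.22), Prodh of proline breakdown (0.03) and Chdh of choline oxidation (-0.01), named after their values were seen, lay inside the middle 90% of genes. The sign of Chdh turned with median centring (0.05) and loess (0.02). The list therefore held genes past 2-fold beside genes near 0.

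Complex III takes the electrons off again. Its subunits and assembly factors had a median of 1.04 over 13 genes. All 13 were higher in the DKO-labelled array. Of the 12 past the floor, 7 reached 2-fold, against 2.79% of all genes above the floor. Uqcrfs1, the Rieske iron-sulfur protein, stood at 1408 and 467 (1.59), and the subunit gene Uqcrq at 1091 and 406 (1.43). Uqcrc1, a core subunit, stood at 4385 and 1798 (1.29), and Cyc1, cytochrome c1, at 3918 and 1772 (1.14). The coenzyme Q genes (6 of 9) and the complex III genes (7 of 12 above the floor) thus had similar shares past 2-fold, and whether they differ was not tested.

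Quinone reductases outside the inner membrane had smaller values. Their median was 0.23 over 4 genes. Among the 3 past the floor 0 reached 2-fold (2.79% of all genes above the floor). Aifm2, which regenerates reduced coenzyme Q at the plasma membrane, stood at 1214 and 879 (0.47), Cyb5r3 at 1229 and 988 (0.32) and Nqo2 at 683 and 614 (0.15).

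**Figure D3:**
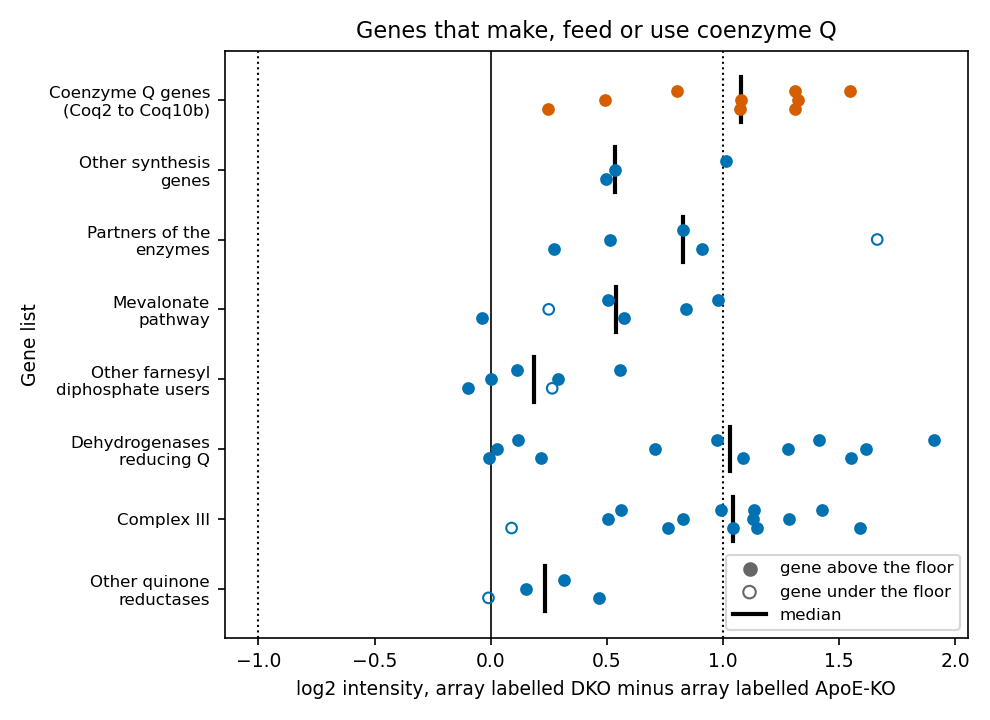
Log2 difference, DKO-labelled minus ApoE-KO-labelled array, of each gene in 8 lists that make, feed or use coenzyme Q, with filled points above and open points under the floor, black bars at the list medians and dotted lines at 2-fold. Medians lie above 1 for the coenzyme Q genes (1.08), the dehydrogenases (1.03) and complex III (1.04), and at 0.19 and 0.23 for other users of farnesyl diphosphate and other quinone reductases.

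The position of the genes in the genome was examined as a feature that the choice of members did not use. The 9 genes lie on 8 chromosomes, and the nearest measured protein-coding gene on each side gave 18 neighbours. These neighbours had a median difference of 0.20, against -0.01 over all 19938 genes. Among the 13 above the floor, 1 was at least 2-fold higher, against 2.79% of all genes above the floor. That neighbour was Ciapin1, an iron-sulfur cluster assembly gene next to Coq9, with intensities of 650 and 287 (1.18). The next largest values above the floor, like Ciapin1 named after they were seen, were those of the chaperonin gene Hspd1 next to Coq10b (4503 and 2346, or 0.94), the citrate synthase gene Cs next to Coq10a (6281 and 3977, or 0.66) and Entpd5 next to Coq6 (1111 and 727, or 0.61). Fam161b, on the other side of Coq6, lay under the floor (184 and 111, or 0.73). Coq2, Coq3, Coq5, Coq7 and Coq10b each had at least 1 neighbour lower in the DKO-labelled array, such as Hpse beside Coq2 (-0.55), Pnisr beside Coq3 (-0.27) and Dynll1 beside Coq5 (-0.30).

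Promoter sequences were read because the measured members were higher together. RefSeq windows (GRCm38.p6) of 250 bases before to 50 after a gene's start were matched by symbol for 9 of the 10 listed genes, Pdss1 included and Coq5 not. CCAAT, the pentamer read by NF-Y, was found on either strand in 3 of these 9 genes (Coq6, Coq7 and Coq10b). Counted by window, 3 of 11 member windows and 37.4% of all 32851 windows hold it. The members with a CCAAT match were 3 of the 5 at least 2-fold higher and 0 of the 3 under 2-fold, a split seen after the values and too small to read. AAGGTCA, a core read by ERR nuclear receptors, was found in Coq10a and Pdss1 (2 of 11 member windows, 4.72% of all windows). Only the upstream window of Coq10a held the match. CCGGAAG, read by ETS factors such as GABPA, was found in Coq6 and Pdss1 (8.86%). CGCATGC, part of the palindrome read by NRF1, was found in Coq2 (1 of 11 member windows, 3.58% of all windows). AAGATGG, read by YY1, was found after the start of Coq9 (1 of 11 member windows, 6.34% of all windows). No motif was shared by more than 3 of the 9 genes, and 0 pairs of matches to different motifs overlapped. A match to these letters is not a binding site, and a missing match says nothing about the factor.

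The 250 bases before the start are shown for the members with the largest differences, Coq6 (chr12:84361718-84361967, plus strand) and Coq7 (chr7:118533357-118533606, minus strand), and for the one with the smallest, Coq4 (chr2:29787243-29787492, plus strand). Each is written from 5′ to 3′ along the gene, with CCAAT and its reverse complement in capitals. Coq6 holds 3 matches and Coq7 holds 2, while Coq4 has no match to any of the 5 motifs. Coq3, which was past 2-fold, has no match to any of them either. Coq9, also past 2-fold, has no CCAAT match.
Coq6: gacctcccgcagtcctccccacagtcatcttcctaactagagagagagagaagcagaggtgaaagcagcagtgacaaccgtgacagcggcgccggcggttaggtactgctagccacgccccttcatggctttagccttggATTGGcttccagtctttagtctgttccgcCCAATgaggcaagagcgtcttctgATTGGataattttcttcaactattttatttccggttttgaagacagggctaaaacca
Coq7: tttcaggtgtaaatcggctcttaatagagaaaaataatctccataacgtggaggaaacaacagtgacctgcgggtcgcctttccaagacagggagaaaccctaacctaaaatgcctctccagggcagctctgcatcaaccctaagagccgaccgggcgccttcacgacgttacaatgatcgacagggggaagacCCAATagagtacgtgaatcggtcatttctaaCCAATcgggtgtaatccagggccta
Coq4: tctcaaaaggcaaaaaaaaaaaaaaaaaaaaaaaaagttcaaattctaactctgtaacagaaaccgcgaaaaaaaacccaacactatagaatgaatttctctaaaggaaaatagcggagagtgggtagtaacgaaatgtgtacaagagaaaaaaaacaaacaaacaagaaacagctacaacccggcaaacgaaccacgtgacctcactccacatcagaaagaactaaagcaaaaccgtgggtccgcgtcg
The GC content of these stretches was 50.8% for Coq6, 49.6% for Coq7 and 37.2% for Coq4. Over the same 250 bases of all 11 member windows, the median GC was 53.6%, against 52.4% over all windows. The median number of CpG dinucleotides was 15 against 6. The 11 windows came from 9 genes, with overlapping windows of Coq3 and windows of Coq10a that held 5 and 22 CpG. All windows were taken without regard to the type of gene, so this comparison is not one with like genes.

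**Figure D4:**
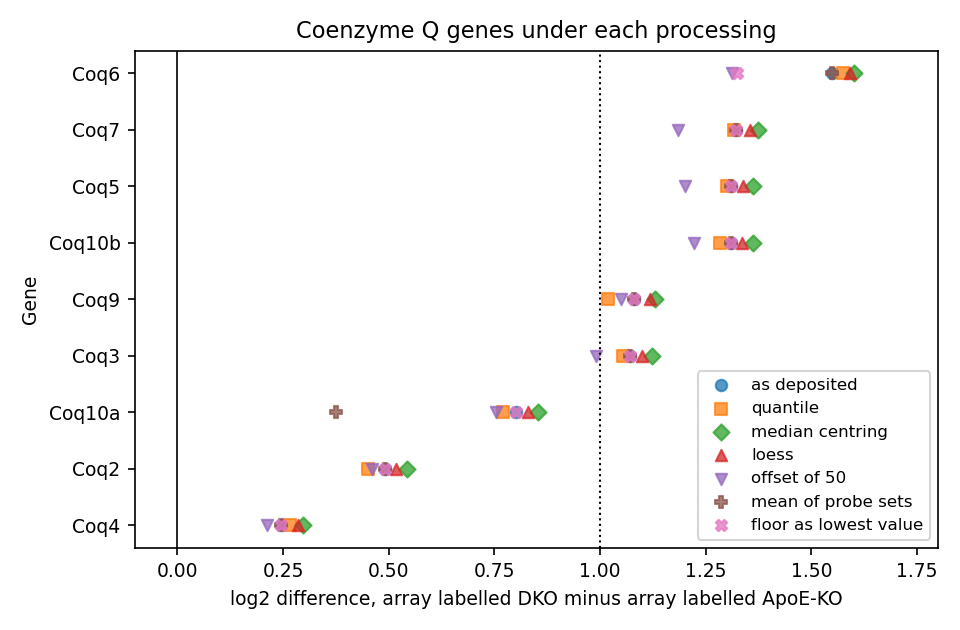
Log2 difference, DKO-labelled minus ApoE-KO-labelled array, of each coenzyme Q gene under the deposited values and 6 alternatives (marker shapes), with the dotted line at 2-fold. Every gene stays above 0, Coq3 drops just under 2-fold (0.99) with an offset of 50, and Coq10a moves to 0.37 with the mean of its probe sets.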

How the data were processed

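The authors deposited 1 linear intensity per probe set and array, from 3.55 to 23635.65. Per the labels' protocols, Trizol-extracted RNA was used and fragmented DNA was labelled with biotin. The sources used here do not name the scanner software, background correction, summarisation or scaling. No detection calls were used.

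Log2 intensities were subtracted (DKO minus ApoE-KO) with no pseudocount, in Python 3.11.15 with pandas 2.3.3 and, for loess, statsmodels 0.14.6. Of 35557 probe sets, 21789 had 1 symbol in the platform annotation, 1621 had several and were dropped, and 12147 had none here. RefSeq (GRCm38.p6) held the Entrez identifiers of 21698 and changed 0 symbols. The brightest probe set stood for each of 999 genes that had more than 1. A gene was counted when above the floor and at least 2-fold different. The calculation was tested on simulated data with noise and differences of a chosen size, which checks the code and not the counts of genes.

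The members and lists were chosen with earlier results of these data known. Named genes were all members, all other synthesis genes and measured partners, up to 4 genes above the floor per other list with the largest absolute difference, the 3 nearest patterns to the member of largest difference, and the targeted genes. The protein comparison of Coq10a and Coq10b was not run, since no protein sequences were used here. Alternatives were quantile normalization, median centring, loess (span 0.4), an offset of 50, the mean of probe sets, the floor as lowest value, other thresholds and other floors.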

Additional observations from a re-analysis of the deposited data

How the results depend on the processing

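With 1 array per genotype, a difference or median was compared by its sign and its side of 2-fold, and a count by a factor of 1.5. The median of the coenzyme Q genes stayed between 1.05 and 1.13 over 6 alternatives, and all 9 genes kept their sign. The count of members at least 2-fold higher was 6, became 7 at 1.5-fold and 0 at 3-fold, and was 5 with an offset of 50. The median of the dehydrogenases was under 2-fold with quantile normalization (0.98). Genes at least 2-fold higher became 749 at 1.5-fold and 52 at 3-fold, by construction. Genes at least 2-fold lower became 369 and 38 at those thresholds, 105 with no floor and 26 with the floor at percentile 75. Of all 486 values under alternatives, 457 kept their sign and side (or, for counts, stayed within the factor), and no value past 2-fold changed sign. No paired analysis was possible because each genotype had only 1 array of pooled RNA, and no test was made. No replicate could be left out.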
